A study of Homo sapiens with 4 samples.

Results

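The genes described here are 9 parts of the Notch pathway: the receptors NOTCH1, NOTCH2 and NOTCH3, the ligands JAG1 and JAG2, the ligand‐modifying ubiquitin ligase NEURL1B, the DNA‐binding factor RBPJ, the target HES1 and the lineage factor ATOH1. They were chosen by gene symbol, with every probe set whose platform annotation names 1 of them and no other gene. This gave 24 probe sets for the 9 genes, of 19775 genes that the array names in this way. The genes themselves were picked with earlier results of these data known. The place of a member among all genes is therefore a description and not a test. RCM‐1 is a human cell line from a well‐differentiated colorectal cancer of the rectum, and near confluency its cells form domes, fluid‐filled blisters of the cell sheet. The cells were treated with 1 mM methylthioacetic acid (MTA) for 0, 6, 12 or 18 h and, after removal of MTA, were kept in vehicle medium with acetonitrile until 24 h. The 6, 12 and 18 h cells had thus spent 18, 12 and 6 h without MTA, so the time under MTA and the time after it cannot be told apart, and the sources used here leave it unsaid whether the control cells stayed in culture as long. All 4 arrays come from the same line, with 1 array per time, so no test was made and no variation between cultures was measured.

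Notch signalling passes between touching cells. A ligand such as JAG1 or JAG2 on 1 cell binds a receptor on its neighbour, a ubiquitin ligase drives the ligand into its cell by endocytosis, and this pull lets proteases cut the receptor. The freed intracellular part enters the nucleus, joins RBPJ and switches on targets such as HES1, a repressor. In the intestine HES1 holds down ATOH1, the factor that commits a cell to the goblet, Paneth or hormone‐secreting fates, so that cells with active Notch become absorptive.

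HES1, the textbook target, lay near the median of all genes and NEURL1B far above it, and the 250 bases before their start sites are shown for that reason. They are the plus strand of RefSeq assembly GRCh38.p14, at chr3:194135898-194136147 for HES1 and chr5:172641013-172641262 for NEURL1B. Capitals mark the core of the RBPJ motif, TGGGAA, or TTCCCA on the other strand.
HES1: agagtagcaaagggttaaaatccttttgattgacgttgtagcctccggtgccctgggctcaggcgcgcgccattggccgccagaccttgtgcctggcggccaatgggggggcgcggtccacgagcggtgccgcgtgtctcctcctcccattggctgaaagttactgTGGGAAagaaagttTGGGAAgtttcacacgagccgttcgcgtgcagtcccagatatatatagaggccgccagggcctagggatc
NEURL1B: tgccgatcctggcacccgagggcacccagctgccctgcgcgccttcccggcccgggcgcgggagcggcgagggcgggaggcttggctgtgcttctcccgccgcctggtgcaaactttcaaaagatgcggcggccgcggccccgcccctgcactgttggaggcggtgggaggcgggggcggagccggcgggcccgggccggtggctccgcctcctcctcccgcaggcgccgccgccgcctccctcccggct
The HES1 window held 2 copies of the core, from 84 to 79 and from 70 to 65 bases before the start site, and the NEURL1B window held none. Of 35116 windows of the same length, 20.8% held at least 1 match and 2.9% held 2 or more. Of the other members only RBPJ held the core, with 2 matches before 1 of its 5 annotated start sites and none before the others. The windows of NOTCH1, NOTCH2, NOTCH3, JAG1, JAG2 and ATOH1 had no match. A match is a description of these letters, not of binding.

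The values are MAS5 signals, intensities on a linear scale that the authors deposited with 1 value per probe set and array. A probe set was kept when its mean log2 signal over the 4 arrays was among the highest 38.4% of all, and the lowest mean signal kept was 34. Of the 24 probe sets 16 were kept, and they stand for 8 of the 9 genes, of 10505 genes with a kept probe set in all. ATOH1 had none. A gene is represented by its brightest kept probe set, and a ratio is the log2 of an MTA signal over the 0 h signal. Over all genes the median ratios at 6, 12 and 18 h were 0.11, −0.28 and −0.47, so a ratio near these values is that of a middle gene. The only measure of error is how far a gene's 2 brightest kept probe sets differ in their ratio on the same arrays, with an SD of 0.408, 0.421 and 0.479 at 6, 12 and 18 h over 4676 genes. This SD holds no variation between arrays or cultures. Beside differences between genes or between MTA arrays it serves as a scale only. All 10 epithelial markers looked up, such as EPCAM and CDX2, had a kept probe set, and their summed signal lay between 41980 and 59970. Of 8 fibroblast, 6 immune and 6 endothelial markers 1 each was kept, with summed signals from 61.65 to 215.2, from 2237 to 3054 and from 48.22 to 85.91. The kept immune marker was LYZ, a lysozyme that Paneth cells also make, and the kept fibroblast marker was COL1A1, a chain of type I collagen.

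NEURL1B was the only gene of the 8 with a ratio beyond 1.5 in either direction, and it was higher in all 3 MTA arrays than at 0 h. At 0, 6, 12 and 18 h its signals were 80.06, 460.7, 582.3 and 512.6. The 3 MTA signals were close to each other and all lay far above the 0 h signal. The log2 ratios were 2.53, 2.86 and 2.68, which are 5.75‐, 7.27‐ and 6.40‐fold. Between neighbouring MTA arrays the signal moved by 0.34 on the log2 scale from 6 to 12 h and by −0.18 from 12 to 18 h, both less than the SD between probe sets. Above 1.5 were 1.43% of all genes at 6 h, 1.18% at 12 h and 1.22% at 18 h, and below −1.5 were 0.019%, 0.942% and 3.19%.

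Ranked from the highest ratio, NEURL1B was number 17 of 10505 genes at 6 h, 8 at 12 h and 9 at 18 h. A rank within an array pair does not move when a whole array is scaled. Most genes above 1.5 were dim on the 0 h array, and NEURL1B was not. Of the 128 such genes at 18 h, 42 (32.8%) had a 0 h signal at or above 34, and NEURL1B had the second highest ratio of these. Among the 54 such genes at 6 h it was number 4, and among the 44 at 12 h number 1. It has a single probe set with its name on this array, so no second reading of the gene was at hand. All 3 ratios share the 0 h signal and are not independent.

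A pair of the 8 fibroblast markers was higher in the same 3 arrays. The brightest COL1A1 probe set had 7.643, 152.7, 114.5 and 143.8 at 0, 6, 12 and 18 h, with ratios of 4.32, 3.91 and 4.23 that ranked number 2, 1 and 1 of 10505 genes. Its 0 h signal was far below 34, so these ratios and ranks rest on a dim 0 h reading. As for NEURL1B, the 3 MTA signals lay close together far above the 0 h signal. The other kept COL1A1 probe set had 58.38, 76.78, 44.84 and 39.42, without that step. The COL1A1 probe sets that were not kept had signals from 3.162 to 26.24 and were higher in each MTA array than at 0 h. THY1, a surface protein of fibroblasts that was not kept, had 16.07 to 19.20 in the MTA arrays and 2.077 at 0 h on its brightest probe set, and 1.112 to 1.572 in the MTA arrays and 6.718 at 0 h on another. Its remaining probe set had 6.034 to 16.56 in the MTA arrays and 0.9373 at 0 h. The other 6 fibroblast markers, COL1A2 and PDGFRA among them, had signals from 0.5372 to 28.45 on their brightest probe sets. None had a ratio above 1 at any time, and some were far below −1. At 6 h COL3A1 and LUM had −3.663 and −3.242. PDGFRA had −2.685 and −1.832 at 12 and 18 h, and PDGFRB had −1.36 at 18 h. These signals were too dim for a ratio to be read. Summed over the 8 markers the signal was 61.65, 208.9, 173.5 and 215.2 at 0, 6, 12 and 18 h. Most of the difference from 0 h came from the brightest COL1A1 probe set alone. Whether these marker signals bear on the NEURL1B signal was not tested.

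The genes with the pattern most like that of NEURL1B were FRMD6, CREB3L1 and ETV1, by the Euclidean distance between the 3 log2 ratios over 10504 other genes. FRMD6 lay 0.30 from it, with ratios of 2.73, 2.70 and 2.54 at 6, 12 and 18 h. CREB3L1, a transcription factor held in the membrane of the endoplasmic reticulum, lay 0.39 from it and ETV1, a transcription factor of the ETS family, 0.42. At 0 h their signals were 16.22, 9.545 and 12.90, so unlike NEURL1B they started below the lowest mean signal kept. They passed the filter only through their MTA signals, so among genes this dim at 0 h the filter itself favoured such a step.

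**Figure D1:**
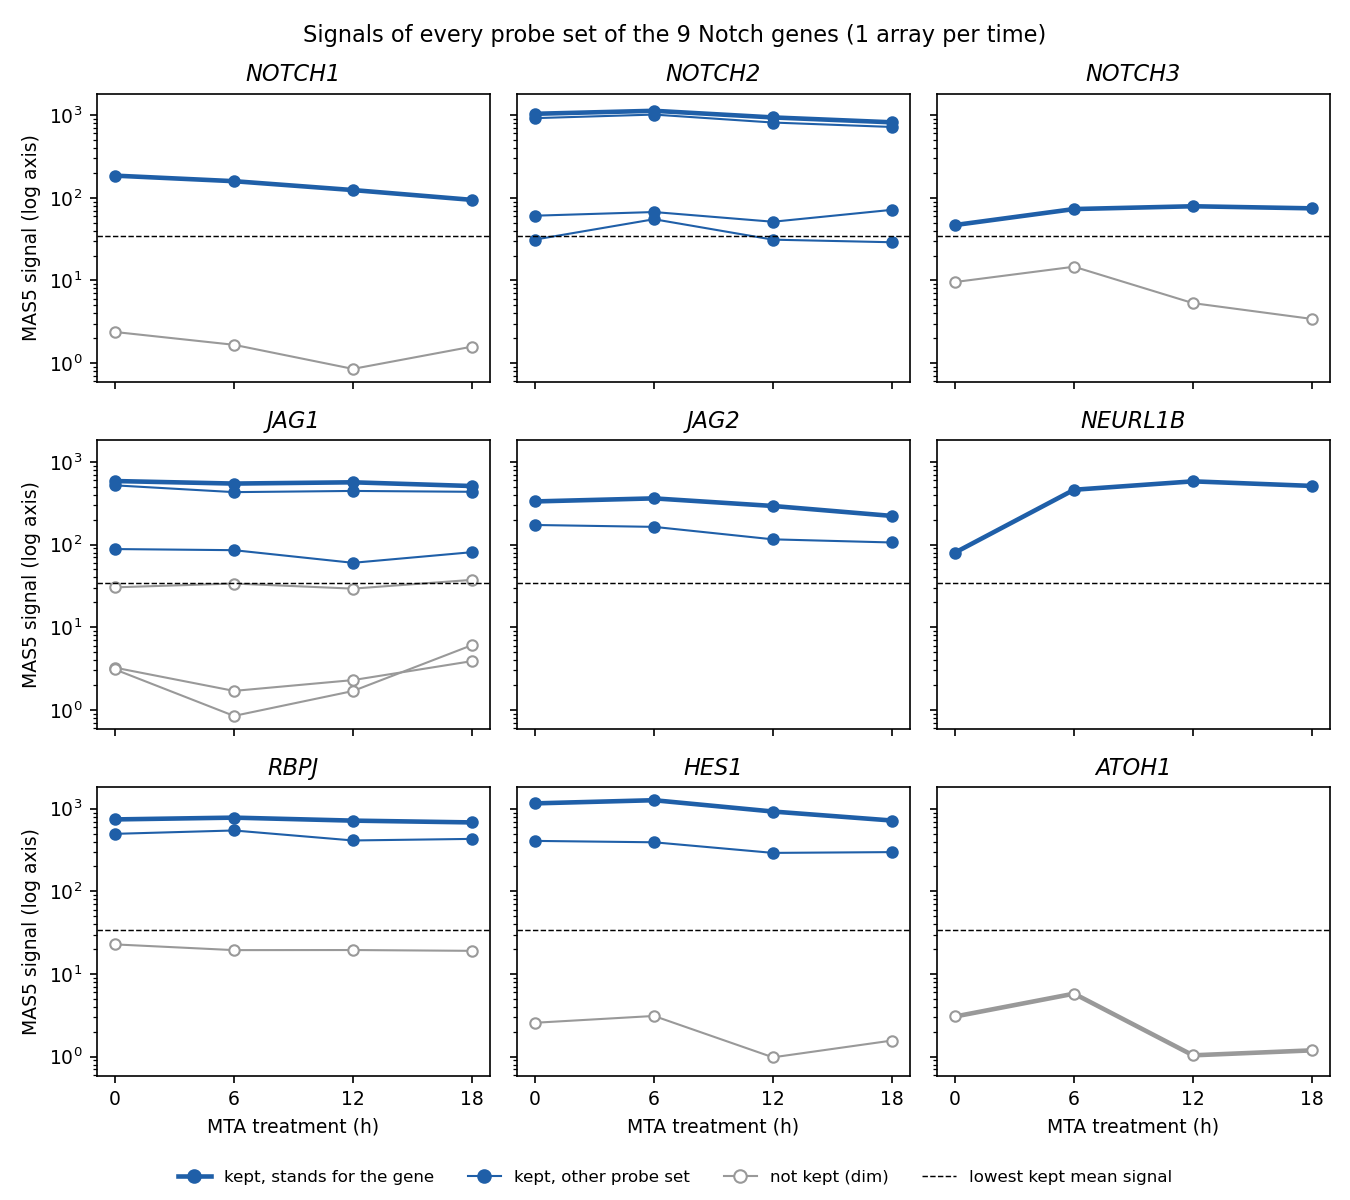
MAS5 signal (log axis) of all 24 probe sets of the 9 genes against hours of MTA treatment, with 1 array per time. Blue lines are kept probe sets, thick where they stand for the gene, grey lines with open points are probe sets that were not kept (thick for ATOH1, which has no other), and the dashed line marks 34, the lowest mean signal kept. NEURL1B has 80.06 at 0 h and at least 460.7 in the MTA arrays, while ATOH1 stays under 6.

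Of the receptors, NOTCH1 had the lowest ratio of the 8 genes at 18 h. Its signals at 0, 6, 12 and 18 h were 185.3, 158.8, 124.0 and 94.39. Each MTA signal was lower than the one at the next shorter exposure. The log2 ratios were −0.22, −0.58 and −0.97, and the last is 1.96‐fold lower in the 18 h cells. NOTCH1 lay below the median of all genes by 0.33, 0.30 and 0.51 at the 3 times, and 82.9% of all genes had a higher ratio at 18 h. A ratio below 0 at all 3 times was kept under all 7 treatments of the array scale, from −0.97 to −0.46 at 18 h. The second NOTCH1 probe set, with signals from 0.8496 to 2.376, was too dim to be kept.

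NOTCH2, a receptor that many epithelia share with NOTCH1, moved with the middle of all genes. Its brightest probe set had 1038, 1129, 938.5 and 819.1 at 0, 6, 12 and 18 h. The ratios were 0.12, −0.15 and −0.34, within 0.14 of the median of all genes each time. Its second probe set, with signals from 719.3 to 1016, differed from it by no more than 0.03 in any ratio. A pair of dimmer kept probe sets had 0.24 and −0.11 at 18 h. A further probe set matches NOTCH2 and 4 NOTCH2NL genes, partial copies of it, and had −0.38 at 18 h, and whether the NOTCH2 probe sets also read these copies was not tested. The sign of the NOTCH2 ratio at 18 h turned with the scaling, from −0.34 to 0.24.

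NOTCH3 was the only receptor whose kept probe set had a higher signal in all 3 MTA arrays than at 0 h. The signals at 0, 6, 12 and 18 h were 46.80, 73.05, 78.95 and 74.51. As for NEURL1B, the 3 MTA signals lay close together above the 0 h signal, but the step was smaller, with ratios of 0.64, 0.75 and 0.67. These stayed under 1, and 5.83% of all genes had a higher ratio at 18 h. Under the 7 treatments of the array scale the 18 h ratio ran from 0.64 to 1.19. The dimmer NOTCH3 probe set, which was not kept, had 3.419 at 18 h against 9.563 at 0 h, signals too dim for a ratio to be read.

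The ligand JAG1, mutated in a syndrome of the liver and heart, had nearly level signals. On the brightest probe set they were 587.2, 547.3, 567.0 and 511.2 at 0, 6, 12 and 18 h, with ratios of −0.10, −0.05 and −0.20. The other kept probe sets had −0.26 and −0.13 at 18 h. The sign at 18 h turned with the scaling, from −0.20 to 0.39. Of 6 JAG1 probe sets 3 were not kept, and the ratios of these 3 at 18 h, from 0.26 to 0.98, were above 0.

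JAG2, the other Jagged ligand, had its lowest signal at 18 h. Its brighter probe set had 332.7, 362.3, 293.1 and 222.2 at 0, 6, 12 and 18 h. The ratio at 18 h was −0.58 on this probe set and −0.70 on the other, and stayed below 0 under all 7 treatments of the array scale, the nearest to 0 being −0.04. The median of all genes was −0.47, so JAG2 lay 0.11 below it. At 6 h the probe sets had 0.12 and −0.08.

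RBPJ, on which all of the canonical pathway rests, had the ratio nearest to 0 at 18 h. Its brightest probe set had 742.4, 780.4, 717.8 and 683.0 at 0, 6, 12 and 18 h. The ratios were 0.07, −0.05 and −0.12, and 0.14, −0.27 and −0.20 on the second probe set. Every value lay within 0.35 of the median of all genes. At 18 h the sign turned with the scaling, from −0.12 to 0.45.

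HES1, the target that the freed receptor and RBPJ switch on, was close to the median of all genes at every time. Signals at 0, 6, 12 and 18 h were 1161, 1268, 924.9 and 720.1 on its brightest probe set. The second kept probe set had 408.0, 392.6, 292.1 and 298.6. On both, the 12 and 18 h cells had lower signals than the 0 and 6 h cells. The ratios of the brighter probe set were 0.13, −0.33 and −0.69, and the last is 1.61‐fold lower in the 18 h cells. Relative to the median of all genes these are 0.02, −0.05 and −0.22, all smaller than the SD between probe sets. The 18 h ratio was below 0 under all 7 treatments of the array scale, from −0.69 to −0.11. The genes with the nearest pattern were EIF4EBP1, an inhibitor of translation, STMP1 and ARPC5, a subunit of the complex that branches actin. Each lay within 0.04 of HES1, nearer than any gene lay to NEURL1B.

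ATOH1, the factor that HES1 represses in the intestine, was too dim for a ratio to be read. Its single probe set had 3.060, 5.782, 1.037 and 1.191 at 0, 6, 12 and 18 h, far below 34. The 12 h ratio, −1.56, lies past the threshold, but so did 21.4% of the 16119 probe sets with a mean signal under 5, in the same direction at that time. Detection calls were not among the values used here, so a signal this low is not told apart from background.

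**Figure D2:**
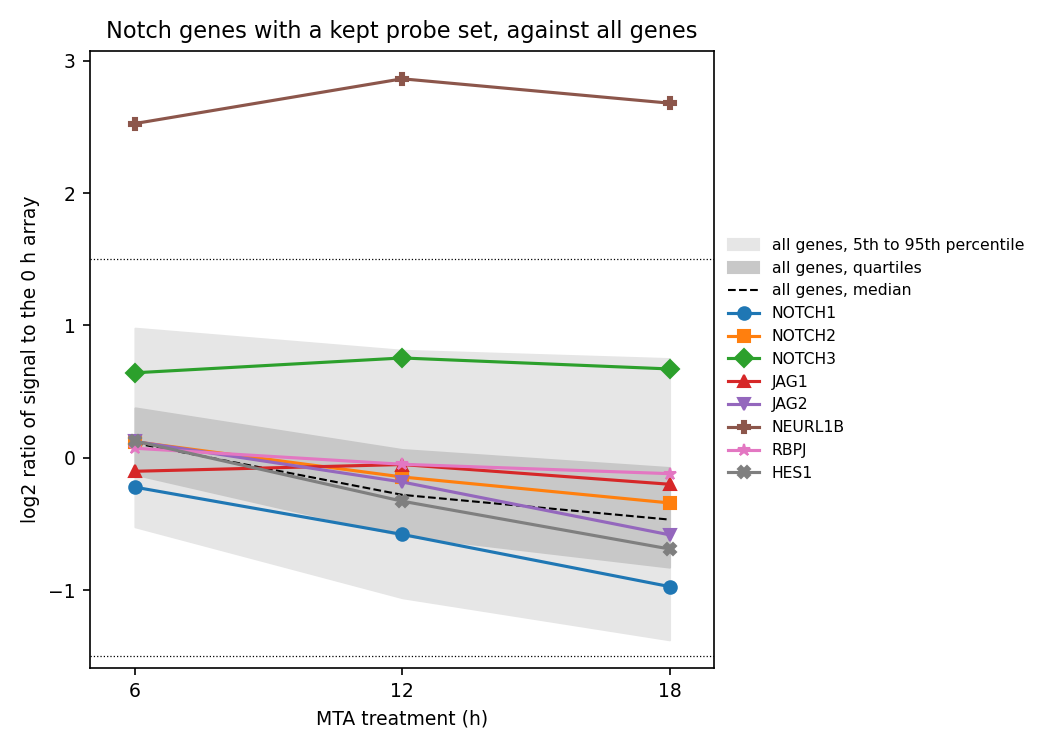
Log2 ratio of signal to the 0 h array at 6, 12 and 18 h of MTA for the 8 genes with a kept probe set, over grey bands for all 10505 genes (5th to 95th percentile, and quartiles) and a dashed line for their median. Dotted lines mark 1.5 and −1.5. NEURL1B, from 2.53 to 2.86, is the only line beyond them. NOTCH1, NOTCH2, JAG2 and HES1 go down from 6 to 18 h, as the median does. RBPJ goes down by less than the median, and JAG1 goes down only from 12 h.

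In the order of the 18 h ratios, NEURL1B was followed by NOTCH3, RBPJ, JAG1, NOTCH2, JAG2, HES1 and NOTCH1. The gap between NEURL1B and NOTCH3 was 2.01 and that between NOTCH3 and RBPJ 0.79. From RBPJ down to NOTCH1 no gap between neighbours was over 0.28. The SD between probe sets was 0.479, but it does not measure gaps between genes. Over the 8 genes the median ratio was 0.12, −0.10 and −0.27 at 6, 12 and 18 h, and without NEURL1B it was 0.12, −0.15 and −0.34. With NEURL1B these medians lay 0.01, 0.18 and 0.20 above those of all genes.

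The steps between MTA arrays do not use the 0 h signal. The 12 h over 6 h ratio of the median gene was −0.39, and its 18 h over 12 h ratio −0.20. NOTCH1 had −0.36 and −0.39 in these steps, and HES1 −0.46 and −0.36. NEURL1B and NOTCH3, the genes above 0 against the 0 h array at all 3 times, had 0.34 and 0.11 in the first step and −0.18 and −0.08 in the second. Between MTA arrays, then, no step of the 8 genes was over 0.46 in either direction on its representing probe set.

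**Figure D3:**
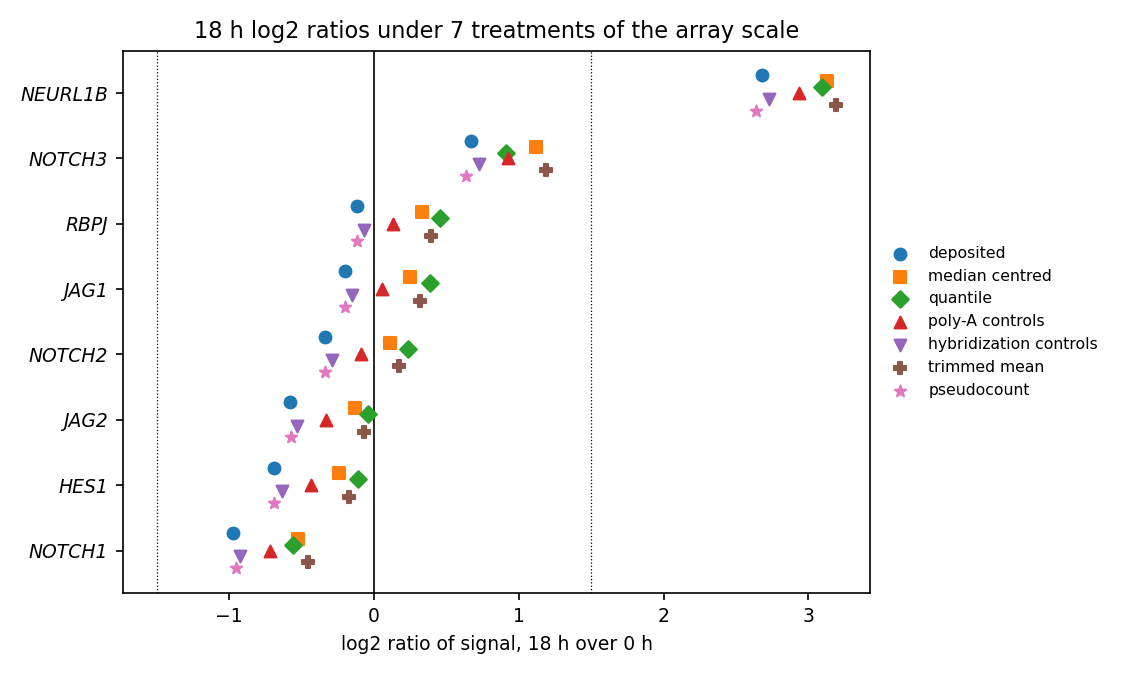
Log2 ratio of signal, 18 h of MTA over 0 h, for the 8 genes with a kept probe set, with a point for each of 7 treatments of the array scale and dotted lines at 1.5 and −1.5. NEURL1B stays between 2.64 and 3.19, NOTCH3 above 0 and NOTCH1, HES1 and JAG2 below 0, while RBPJ, JAG1 and NOTCH2 lie on both sides of 0.

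The rest of the pathway was read from 7 lists of 91 further genes, of which 63 had a kept probe set. At 18 h 2 (3.17%) were above 1 and 9 (14.3%) below −1, against 3.15% and 15.8% of all genes, and their median of −0.47 was that of all genes. With the mean over a gene's kept probe sets 6 were below −1. Among the enzymes that add sugars to the receptor, 1 of 8 was above 1 and 2 were below −1. GXYLT2, which adds xylose, had 1.51, while its relative GXYLT1 had −1.25, and −0.80 on its second probe set. LFNG, the Fringe enzyme that tunes the choice of ligand, had −1.13. The signal of GXYLT2 at 0 h was 21.14, below the lowest mean signal kept.

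Among 8 genes of receptor cleavage, the γ‐secretase subunits APH1B and APH1A lay apart. APH1B had signals of 17.77, 55.44, 51.36 and 59.38 at 0, 6, 12 and 18 h, a ratio of 1.74 at 18 h that rests on a dim 0 h reading. APH1A, its paralogue, had 1067, 962.4, 735.8 and 496.6, a ratio of −1.10, and its dimmer probe set had −0.83. PSENEN, another subunit, had −1.02. ADAM10, the protease that makes the first cut after ligand binding, had −0.01.

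Of 11 genes of ubiquitination and endocytosis only DNM2, a dynamin that pinches off vesicles, was beyond 1, at −1.05, and −0.12 on a dimmer probe set. MIB1, the other main ligase of Notch ligands beside the Neuralized family, had −0.47, and NEURL1, the closest relative of NEURL1B, was not kept. Of 11 coactivators and turnover genes FBXW7, which marks the cut receptor for destruction, had −1.14, and −0.81 and −0.96 on its dimmer probe sets. The acetyltransferase KAT2A had −1.11. The coactivators MAML1, MAML2 and MAML3 had −0.04, 0.21 and −0.08. Among 12 corepressors only RITA1, which carries RBPJ out of the nucleus, was beyond 1, at −1.14, and −1.18 on its second probe set.

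Of 11 other targets, only MYC, a target in some cells, was beyond 1, at −1.59. NRARP, a feedback inhibitor that Notch induces in many tissues, had signals of 509.9 at 18 h and 815.6 at 0 h. Its ratio of −0.68 was close to the −0.69 of HES1, and the median of all genes was itself −0.47. HEY1 and HEY2, relatives of HES1, had 0.33 and 0.11, and the 0 h signal of HEY1, 31.94, was below the lowest mean signal kept. Over the 11 targets the median ratio at 18 h was −0.05, the value of PTCRA, against −0.47 for all genes. The targets with the highest 0 h signals, MYC, SOX9, CCND1 and NRARP, had −1.59, −0.75, −0.84 and −0.68, all below −0.47. Of those above it HEY1, HEY2, PTCRA and HES6 had 0 h signals of only 31.94 to 62.90. The brighter CDKN1A and GATA3 were also above it, at −0.02 and 0.01. This median is thus not that of the bright targets. The list was drawn from textbook knowledge and its members answer to many signals besides Notch.

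**Figure D4:**
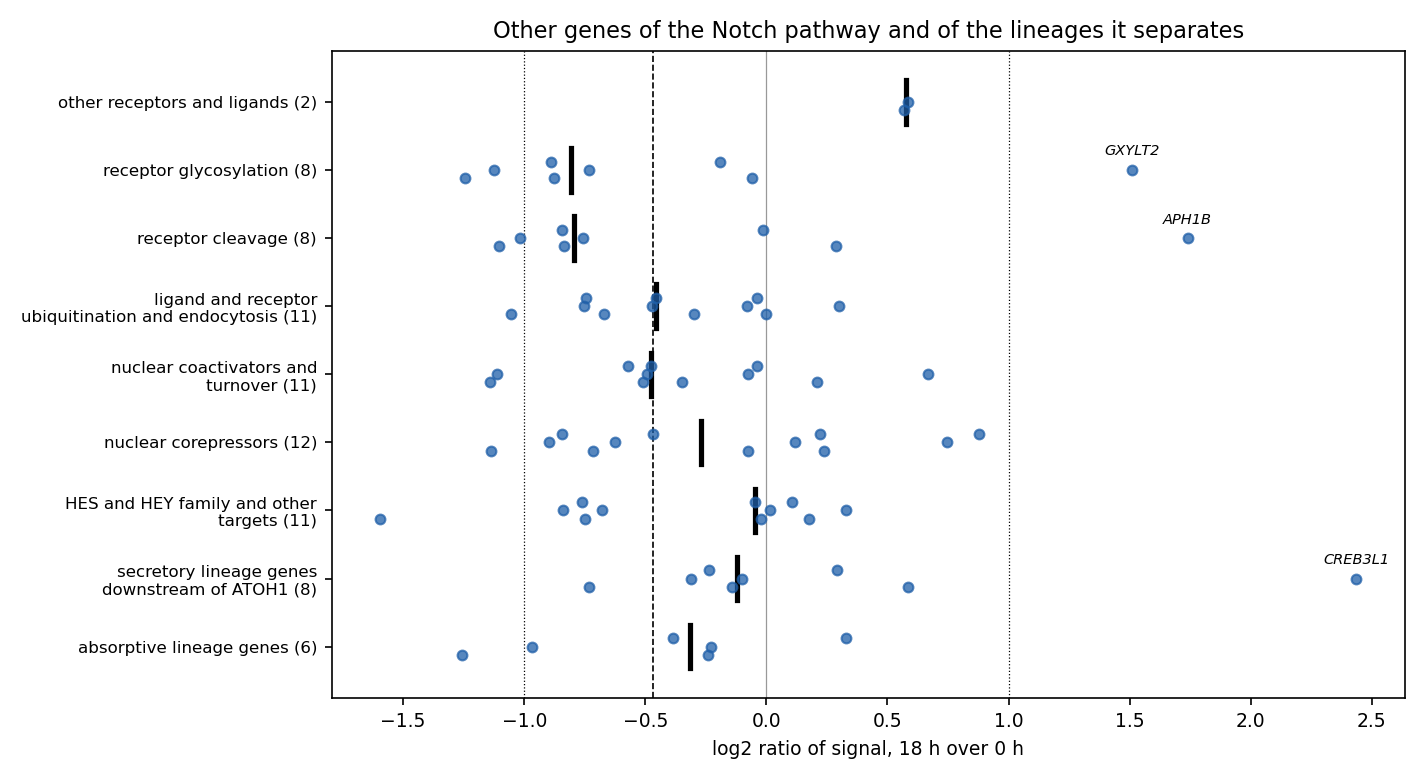
Log2 ratio of signal, 18 h of MTA over 0 h, for kept genes of 7 lists of the Notch pathway and 2 lineage lists, with a point for each gene, the number of genes in brackets, a thick bar at each list's median, a dashed line at −0.47 for the middle of all genes, and dotted lines at 1 and −1. GXYLT2, APH1B and CREB3L1 are the only points above 1.

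Of the other receptors and ligands only DLL1 and MFAP2, a matrix protein that binds Jagged ligands, were kept. DLL1, a ligand made by secretory cells, had 51.22 at 18 h and 34.16 at 0 h, a ratio of 0.58. NOTCH4, DLL3 and DLL4 were too dim.

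Genes of the fates that Notch separates were read from 2 lists. Over all genes the median at 18 h was −0.47, with 3.15% above 1 and 15.8% below −1. Of 24 secretory genes 8 were kept, with a median of −0.12, and only CREB3L1 was beyond 1, at 2.44. That ratio rests on a dim 0 h signal of 9.545. The goblet cell products TFF3, SPINK4 and AGR2 had −0.73, −0.10 and −0.14. Of 20 absorptive genes 6 were kept, with a median of −0.32, and only CA2, a carbonic anhydrase of surface colonocytes, was beyond 1. Its signals at 0, 6, 12 and 18 h were 285.1, 599.5, 299.4 and 119.1, higher than at 0 h after the shortest exposure and lower after the longest.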

How the data were processed

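Total RNA of RCM‐1 cells was labelled with the 3′ IVT Express kit and hybridised to Affymetrix U133 Plus 2.0 arrays, 1 per time. The authors deposited MAS5 signal intensities from Affymetrix Expression Console, on a linear scale. For the software version and scaling target, nothing is given in the sources used here. Control probe sets (62) were left out, and as many of the other 54613 probe sets were kept as the study counts as detected. Signals were turned into log2 ratios to 0 h with no pseudocount, called beyond 1.5 (2.83‐fold), the study's threshold. For lists, 1 was used. Symbols came from GEO's platform annotation, updated through RefSeq (GRCh38.p14). Motifs were searched on both strands in the 250 bases before each start site. All members were named, with up to 4 genes beyond 1 per list, the 3 nearest patterns to NEURL1B and HES1, and other list genes chosen after their values were seen. The members and lists were chosen with earlier results of these data known. Alternatives were other filters, scalings, thresholds, a pseudocount and the mean over probe sets. The steps were tested on simulated data (18 h against 0 h). Python 3.11.15, NumPy 2.4.6, pandas 2.3.3 and matplotlib 3.10.9 were used.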

Additional observations from a re-analysis of the deposited data

How the results depend on the processing

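NEURL1B stayed above the threshold at 6, 12 and 18 h under all 13 alternatives, and no other member was above it in any of them. For NEURL1B, with a single probe set, only the scalings, the pseudocount and the thresholds could change this. Of 297 member ratios under the alternatives, 281 moved by less than the SD between probe sets and 16 by more, and no ratio beyond 1.5 turned its sign. The 281 include ratios that could not move. The other filters left each representing probe set the same, and the mean over probe sets cannot move a gene with 1 kept probe set. ATOH1, counted as lower at 12 h although dim, left 0 lower members at 12 h with median centring, scaling to the hybridization controls or to the trimmed mean, a pseudocount of 2.9, or a threshold of 2. At 18 h ATOH1 made 1 lower member with quantile normalization, and 1 with a threshold of 1, where the main count was 0. For the other pathway genes at 18 h the main counts were 2 above 1 and 9 below −1. Above 1 were 8 without a filter, 0 with the filter by the highest minimum or the stricter filter, 7 with median centring, 4 relative to the poly‐A controls, 7 with the trimmed mean and 0 beyond a threshold of 2. Below −1 was 1 with median centring, quantile normalization, poly‐A controls or the trimmed mean, 1 with a threshold of 1.5 and 0 with 2. These 4 scalings raise the 18 h ratio of the median gene by 0.25 to 0.52, and the stricter filters leave fewer dim genes. No paired analysis was possible because each time has 1 array. With 1 array per time, leaving out a replicate was not possible either, and dim signals limit ATOH1 at all times and, at 0 h, GXYLT2, APH1B and CREB3L1.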
